A study of Arabidopsis thaliana with 22 samples.

Results

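The genes described here are nuclear genes for subunits of the mitochondrial respiratory complexes I, III and IV and of the ATP synthase, complex V, in Arabidopsis thaliana. Of 60 listed loci, 36 were measured, meaning that a probe set annotated to exactly 1 gene carried the locus, among 12511 probe sets tested. They were 18 of 30 listed loci for complex I, 9 of 13 for complex III, 5 of 7 for complex IV and 4 of 10 for complex V, and the list held none for complex II. No measured gene had more than 1 probe set, so no choice between probe sets was needed. The remaining loci comprised 6 that appeared only on probe sets shared by several genes, namely the genes of the ATP synthase beta subunit, the Rieske protein and the PDSW subunit of complex I, and 18 that were on no named probe set.

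Complex I takes electrons from NADH and passes them to ubiquinone, complex III passes them on to cytochrome c, and complex IV hands them to oxygen. These complexes pump protons across the inner membrane, and ATP synthase uses the return of the protons to make ATP. In plants the core proteins of complex III also act as the peptidase that removes the targeting sequence from imported mitochondrial proteins, and leaves use the respiratory chain in the dark as well as beside photosynthesis in the light.

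All plants were wild type of the Col-0 accession, grown in soil under 10 h of light and 14 h of dark at 21 and 18 °C, and all spent their first 7 days at 370 ppm CO2 before they were split at random between 2 chambers held at 750 ppm (elevated) or 370 ppm (ambient). Leaf 10 was taken as a primordium, during rapid expansion and when mature, which gave 6 groups. Primordia were measured on 4 arrays at elevated and 4 at ambient CO2, expanding leaves on 3 and 3, and mature leaves on 4 and 4, 22 arrays in all. A replicate of primordia pooled 20 plants, whose primordia were dissected after preservation in RNA-Later ICE, whereas expanding and mature leaves were frozen whole. In comparisons with primordia, stage and mode of harvest therefore cannot be told apart, whereas expanding and mature leaves were harvested alike. Nor can CO2 level be told apart from chamber.

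Values are log2 levels relative to the median probe set of the same array, so a difference of 1 is 2-fold. Changes come from limma with 1 mean per group, and a gene is called at a Benjamini-Hochberg adjusted p under 0.05 over all tested probe sets. An error after ± is the standard error of the fit unless SD is written. Replicate arrays of a group correlated at r between 0.969 and 0.992 over all probe sets, and the number of arrays limits the precision. The lowest value, 0.969, was in mature leaves at elevated CO2. Counts without mature elevated replicates 3 and 4, a pair picked after the data had been seen, are given where they move by more than 1.5 times. Whether these arrays stood apart from the other mature arrays was not tested, and deviations from a group's own mean cannot show it. Over all probe sets, the deviation of elevated replicate 3 from its group mean correlated with those of ambient replicates 1 to 4 at r = -0.50, 0.17, 0.08 and 0.38. For elevated replicate 4 the values were -0.27, 0.10, 0.12 and 0.12, and for elevated replicate 2 they were 0.51, -0.18, -0.19 and -0.29. For elevated replicate 1 they were 0.26, -0.10, 0.02 and -0.24. The signal difference between 3-prime and 5-prime probe sets of control transcripts was 1.71 to 1.98 in expanding elevated and 1.61 to 1.83 in expanding ambient leaves, against 1.41 to 1.65 in all other arrays. Marker lists of other cell types were only partly measured. The summed level of the 2 measured of 13 listed division genes, AUR1 and PRL, lay on the log2 scale at 2.11 to 2.50 in primordia, 0.05 to 0.63 in expanding leaves and -1.0 to -0.29 in mature leaves. The 4 measured of 15 mesophyll genes summed to 5.98 to 6.38, 7.21 to 7.54 and 7.01 to 7.49 in the same order of stages. Of 8 epidermis and guard cell genes 2 were measured. FMA, a guard cell regulator, lay at -1.19 to -0.92, -1.39 to -0.53 and -1.96 to -1.06 in the same order, and STOMAGEN, a signal to stomata that the mesophyll makes, at 2.02 to 2.41, 1.82 to 2.51 and -1.31 to 1.59, and none of 8 vascular and 5 meristem genes was measured. Log values have no 0, so no marker can be called absent, and the part of cell makeup or RNA quality in the results below was not tested.

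On every one of the 22 arrays 34 of the 36 genes exceeded the array median, the exceptions being COX5c-3 (AT5G61310) and the 15 kDa gene AT2G47690. Signal also depends on the probe set, so levels are not ranked between genes. The genes moved little across the study. The range of the 6 group means had a median of 0.30 over the 36 genes, against 0.88 over all probe sets. By mean level, 56.5% of all probe sets lay below the dimmest of the 36 genes and 91.7% below their median. The part of brightness in this and the later comparisons with all probe sets was not tested. The heat map of deviations by array shows this narrow range, in which the COX5c-3 gene of complex IV is the exception. Per array, the median deviation over the 36 genes was 0.07 to 0.10 in primordia at elevated and 0.01 to 0.15 at ambient CO2, -0.03 to 0.06 and 0.01 to 0.14 in expanding leaves, and -0.15 to -0.01 and -0.17 to -0.07 in mature leaves. In whole leaves, fewer cells of a type and less RNA per cell cannot be told apart.

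**Figure D1:**
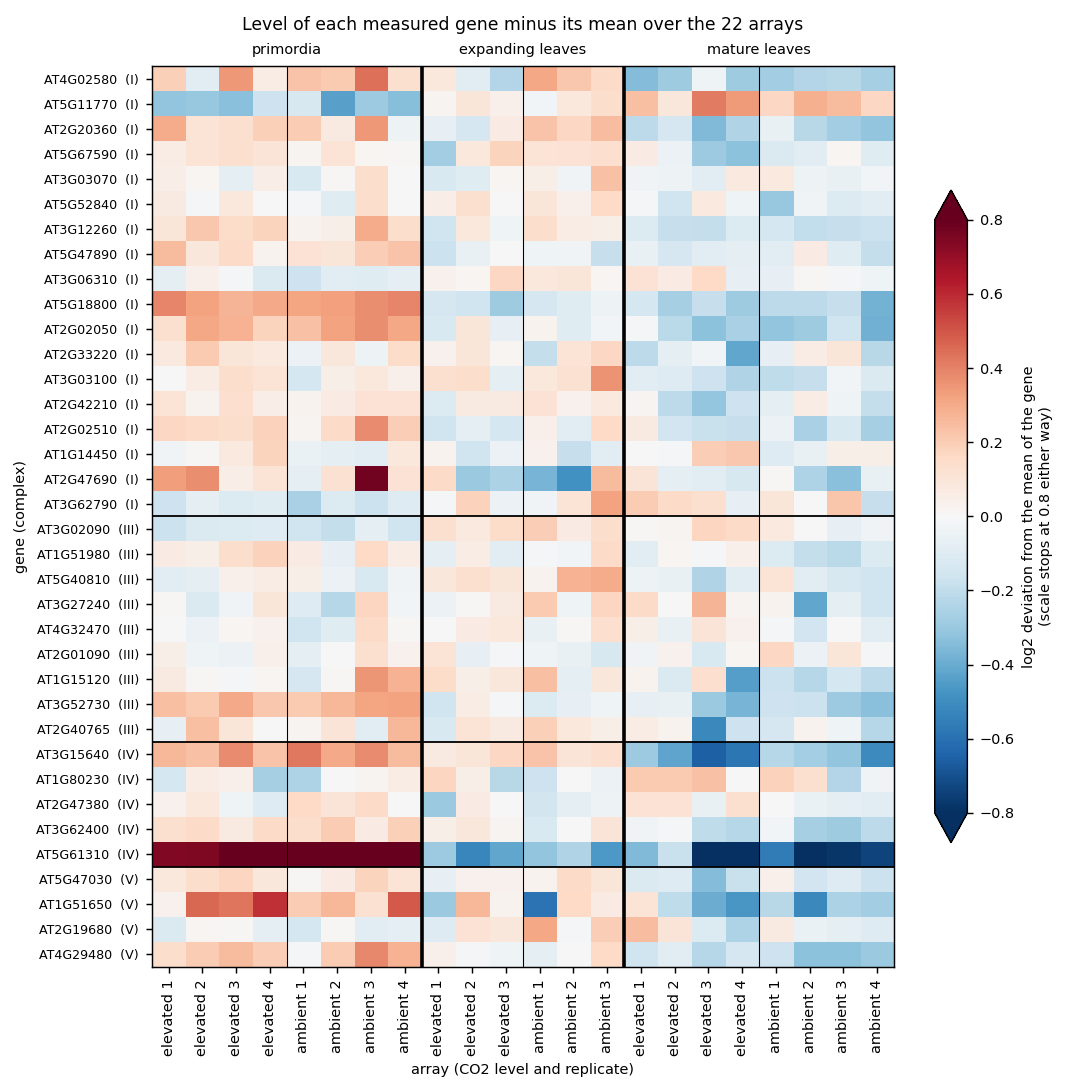
Deviation of each of the 36 measured genes (rows, by complex) from its own mean over the 22 arrays (columns, by stage and CO2 level), as colour on a log2 scale that stops at 0.8 either way. Most rows are pale, COX5c-3 (AT5G61310) is high in all 8 primordia arrays and low in all others, and COX5b-1 (AT3G15640) is low in the 8 mature arrays.

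Complex IV held the largest changes with leaf age. COX5b and COX5c are small nuclear-encoded subunits of cytochrome c oxidase, and COX5b corresponds to the zinc-binding subunit of mammals. Both COX5b genes and all 3 COX5c genes were measured, while neither listed COX6b gene was. COX5c-3 (AT5G61310) had 1.40, 1.40, 1.53 and 1.60 in primordia at elevated and 1.67, 1.47, 1.63 and 1.95 at ambient CO2; 0.37, 0.14 and 0.24 in elevated and 0.35, 0.42 and 0.20 in ambient expanding leaves; and 0.31, 0.48, -0.17 and -0.18 in elevated and 0.10, -0.19, -0.12 and -0.08 in ambient mature leaves. Every primordia array thus lay far above every array of the later stages. Expanding leaves had 42.6% of the primordia level at elevated CO2 (log2 change -1.23 ± 0.14, adjusted p = 1.28e-07) and 39% at ambient CO2 (-1.36 ± 0.14, adjusted p = 4.24e-08). Mature leaves had 38.6% of the primordia level at elevated CO2 (-1.37 ± 0.13, adjusted p = 4.17e-09) and 29.7% at ambient CO2 (-1.75 ± 0.13, adjusted p = 9.09e-11). COX5c-3 was the 1 gene of the 36 to pass a 2-fold change, and it did so in these 4 comparisons and in none between mature and expanding leaves. Between mature and expanding leaves at ambient CO2 it fell by 0.39 ± 0.14 (adjusted p = 0.0283), a call lost without expanding ambient replicate 1 (0.0696) or 2 (0.103) and without mature ambient replicate 2 (0.0713) or 3 (0.0589), and with the RNA quality measure as a covariate (0.163).

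COX5b-1 (AT3G15640) fell in mature leaves against both earlier stages. Its levels in primordia were 2.21, 2.18, 2.33 and 2.18 at elevated and 2.37, 2.25, 2.33 and 2.20 at ambient CO2. Expanding leaves had 2.02, 2.04 and 2.11 at elevated and 2.17, 2.05 and 2.08 at ambient CO2, and mature leaves 1.66, 1.53, 1.29 and 1.37 at elevated and 1.72, 1.67, 1.63 and 1.44 at ambient CO2. All 8 mature arrays were below all 14 others. Mature leaves had 66.0% of the level of expanding leaves at elevated CO2 (log2 change -0.60 ± 0.09, adjusted p = 4.61e-05), and at ambient CO2 the change was -0.49 ± 0.09 (adjusted p = 0.000209). Against primordia, mature leaves had 58.9% at elevated (-0.76 ± 0.08, adjusted p = 4.10e-08) and 62.8% at ambient CO2 (-0.67 ± 0.08, adjusted p = 2.94e-07). These calls held without any single array.

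The other 3 genes of complex IV moved less. COX5c-2 (AT3G62400) was lower in mature leaves than in primordia, with a log2 change of -0.24 ± 0.08 at elevated (adjusted p = 0.00726) and -0.35 ± 0.08 at ambient CO2 (adjusted p = 0.000379), although without mature elevated replicates 3 and 4 the elevated value was -0.15 (adjusted p = 0.149). COX5b-2 (AT1G80230) had 1.67, 1.67, 1.70 and 1.47 in elevated and 1.64, 1.59, 1.23 and 1.43 in ambient mature leaves, and its primordia had 1.32, 1.52, 1.50 and 1.20 at elevated and 1.22, 1.46, 1.48 and 1.52 at ambient CO2, so stages overlapped. Its rise in mature leaves over primordia at elevated CO2 (0.24 ± 0.11, adjusted p = 0.0483) was lost under other scalings (0.15, adjusted p = 0.212, after quantile normalization) and without single arrays of either group, for example primordia elevated replicate 4 (0.18, adjusted p = 0.163), and at ambient CO2 the value was 0.05 ± 0.11. COX5c-1 (AT2G47380) was called in no stage comparison. Over the 5 genes the median change between mature leaves and primordia was -0.24 at elevated and -0.35 at ambient CO2.

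**Figure D2:**
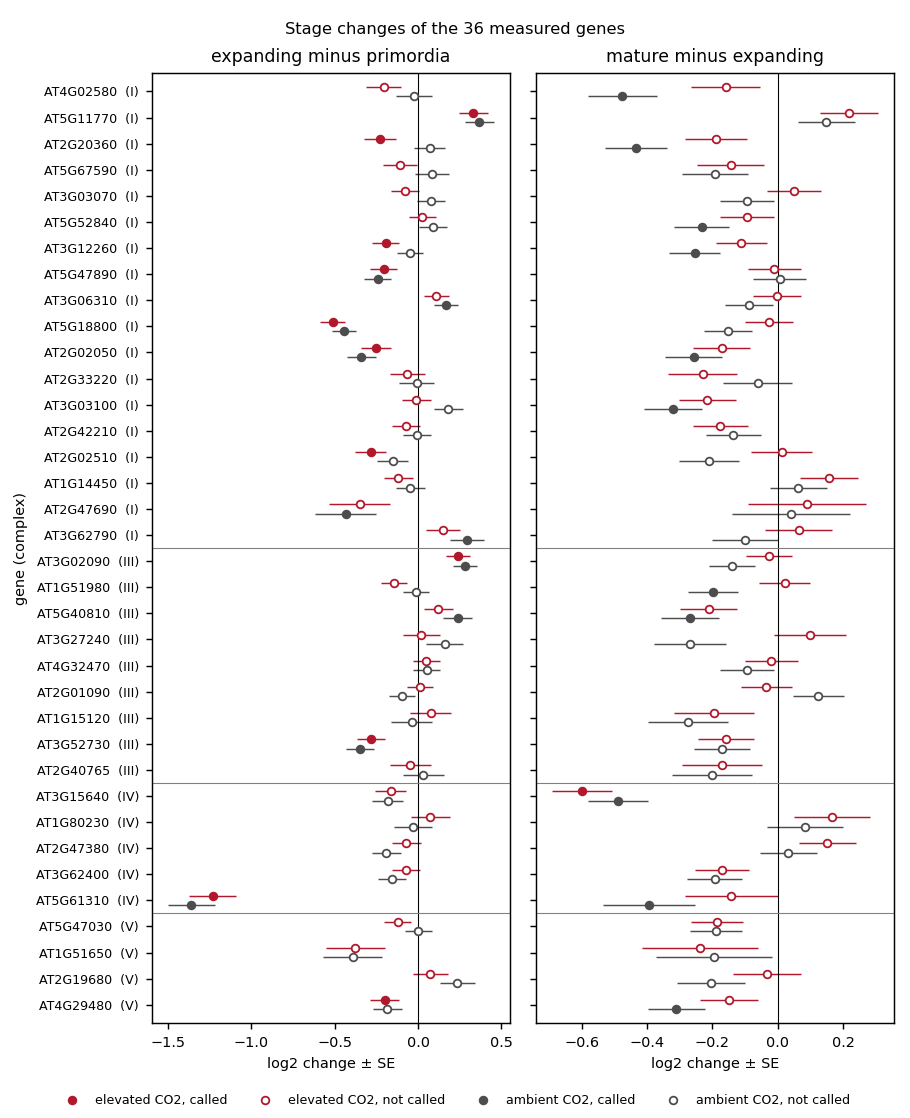
Log2 change of each measured gene between expanding leaves and primordia (left) and between mature and expanding leaves (right), with its standard error, at elevated (red) and ambient (grey) CO2; filled points passed the threshold. COX5c-3 stands at -1.23 and -1.36 in the left panel, COX5b-1 at -0.60 and -0.49 in the right panel, and most other points are within 0.5 of 0.

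In the matrix arm of complex I, the part that oxidises NADH, 9 genes were measured: 1 of 3 in the NADH-binding module, 1 of 3 in the ubiquinone-reducing module, and 7 of 7 accessory subunits. PSST (AT5G11770), the subunit that carries the last iron-sulfur cluster before ubiquinone, was the member with the clearest rise. Its levels were 2.44, 2.45, 2.42 and 2.59 in elevated and 2.63, 2.33, 2.47 and 2.42 in ambient primordia; 2.78, 2.86 and 2.80 in elevated and 2.74, 2.85 and 2.90 in ambient expanding leaves; and 3.00, 2.85, 3.17 and 3.10 in elevated and 2.93, 3.04, 3.01 and 2.93 in ambient mature leaves. Primordia were below both later stages on every array. Mature leaves had 1.47 times the primordia level at elevated CO2 (log2 change 0.55 ± 0.08, adjusted p = 2.85e-06) and 1.43 times at ambient CO2 (0.52 ± 0.08, adjusted p = 7.14e-06). Expanding leaves were higher than primordia by 0.33 ± 0.09 at elevated (adjusted p = 0.00217) and 0.37 ± 0.09 at ambient CO2 (adjusted p = 0.00104), the second of which became 0.23 with an adjusted p of 0.0569 after quantile normalization.

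The 24 kDa subunit (AT4G02580), which carries an iron-sulfur cluster of the NADH-binding module, and the 39 kDa subunit (AT2G20360), an accessory subunit of the matrix arm, went the other way. For the 24 kDa gene, primordia had 3.29, 3.01, 3.44 and 3.16 at elevated and 3.33, 3.31, 3.54 and 3.23 at ambient CO2, expanding leaves 3.18, 3.01 and 2.87 at elevated and 3.41, 3.31 and 3.25 at ambient CO2, and mature leaves 2.75, 2.82, 3.06 and 2.81 at elevated and 2.82, 2.86, 2.88 and 2.83 at ambient CO2. The 39 kDa gene had 2.36, 2.18, 2.20 and 2.26 in elevated and 2.27, 2.14, 2.42 and 2.03 in ambient primordia; 2.00, 1.94 and 2.13 in elevated and 2.30, 2.23 and 2.32 in ambient expanding leaves; and 1.86, 1.93, 1.72 and 1.83 in elevated and 2.01, 1.85, 1.79 and 1.76 in ambient mature leaves. At ambient CO2 the expanding arrays of both genes lay within the range of the primordia arrays, and every mature array was lower than every array of the earlier stages. There the fall between mature and expanding leaves was 0.47 ± 0.11 for the 24 kDa gene (log2, adjusted p = 0.00112) and 0.43 ± 0.09 for the 39 kDa gene (adjusted p = 0.000873). At elevated CO2 neither was called at that step. The 39 kDa gene was there already lower in expanding leaves than in primordia, by 0.23 (adjusted p = 0.0369). That call was lost without any 1 of 4 arrays (up to 0.140, without expanding elevated replicate 2). Mature leaves were below primordia at both CO2 levels, by 0.36 ± 0.10 at elevated (adjusted p = 0.00201) and 0.50 ± 0.10 at ambient CO2 (adjusted p = 9.88e-05) for the 24 kDa gene, and by 0.42 ± 0.09 (adjusted p = 0.000190) and 0.37 ± 0.09 (adjusted p = 0.000738) for the 39 kDa gene. Whether the step between mature and expanding leaves differed between CO2 levels was tested as the difference of CO2 effects, and it was called for neither gene.

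Among the other accessory subunits of the matrix arm, B14 (AT3G12260) and B8 (AT5G47890) were lower in mature leaves than in primordia at both CO2 levels. B14 fell by 0.31 ± 0.07 at elevated (adjusted p = 0.000673) and by 0.30 ± 0.07 at ambient CO2 (adjusted p = 0.000788), and B8 by 0.22 ± 0.07 (adjusted p = 0.0118, but 0.0505 without primordia elevated replicate 1) and 0.24 ± 0.07 (adjusted p = 0.00686). Expanding leaves were already below primordia for B8, by 0.21 at elevated (adjusted p = 0.0277) and 0.24 at ambient CO2 (0.0119). For B14 they were lower by 0.19 at elevated CO2 (0.0328). Between mature and expanding leaves at ambient CO2 B14 fell by 0.25 (0.0122). Each of these 4 calls was lost without some 1 array (up to 0.125, 0.0727, 0.175 and 0.0506). B17.2 (AT3G03100) had 2.71, 2.69, 2.63 and 2.55 in elevated mature leaves against 2.92, 2.94 and 2.72 in elevated expanding leaves, and 2.59, 2.61, 2.77 and 2.67 in ambient mature leaves against 2.88, 2.91 and 3.15 in ambient expanding leaves. At ambient CO2 the groups did not overlap and the change was -0.32 ± 0.09 (adjusted p = 0.00536). The call was lost without expanding ambient replicate 3 (adjusted p = 0.0531) and with the RNA quality measure as a covariate (-0.23, adjusted p = 0.0720). At elevated CO2 B17.2 was lower in mature leaves than in primordia by 0.23 (adjusted p = 0.0146, but 0.125 without mature elevated replicates 3 and 4). FRO1 (AT5G67590), the 18 kDa subunit whose mutant was isolated for its poor response to cold, fell between mature leaves and primordia at elevated CO2 by 0.25 ± 0.09 (adjusted p = 0.0200, but 0.421 without mature elevated replicates 3 and 4, and up to 0.0832 without 1 array), and the difference of this step between CO2 levels was not called. B13 (AT5G52840) fell by 0.23 ± 0.08 between mature and expanding leaves at ambient CO2 (adjusted p = 0.0278), a call lost after quantile normalization (0.133) and without any 1 of 3 arrays (up to 0.103, without expanding ambient replicate 3), and the 13 kDa subunit (AT3G03070) was called at no stage step.

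In the membrane arm of complex I, 9 of 12 listed accessory subunits were measured and none of the 5 carbonic anhydrase subunits, which plants carry on this arm. PGIV-2 (AT5G18800) fell early. It had 2.30, 2.23, 2.18 and 2.21 in elevated and 2.23, 2.24, 2.28 and 2.30 in ambient primordia; 1.78, 1.75 and 1.63 in elevated and 1.78, 1.81 and 1.87 in ambient expanding leaves; and 1.77, 1.65, 1.73 and 1.62 in elevated and 1.71, 1.71, 1.73 and 1.53 in ambient mature leaves. The primordia lay above all other arrays by a wide margin, and expanding and mature leaves were close. The change between expanding leaves and primordia was -0.51 ± 0.07 at elevated (adjusted p = 2.77e-06) and -0.44 ± 0.07 at ambient CO2 (adjusted p = 2.11e-05), and that between mature leaves and primordia was -0.54 ± 0.07 (adjusted p = 2.92e-07) and -0.60 ± 0.07 (adjusted p = 7.38e-08).

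B18 (AT2G02050), another small membrane arm subunit, was lower in mature leaves than in primordia. Primordia had 2.70, 2.88, 2.85 and 2.75 at elevated and 2.81, 2.89, 2.95 and 2.88 at ambient CO2, expanding leaves 2.45, 2.67 and 2.51 at elevated and 2.60, 2.48 and 2.55 at ambient CO2, and mature leaves 2.56, 2.36, 2.25 and 2.32 at elevated and 2.26, 2.29, 2.41 and 2.19 at ambient CO2. At ambient CO2 no stage overlapped another, whereas at elevated CO2 expanding and mature leaves did. Mature leaves were lower than primordia by 0.42 ± 0.08 at elevated (log2, adjusted p = 6.76e-05) and by 0.60 ± 0.08 at ambient CO2 (adjusted p = 8.94e-07). Expanding leaves were already lower than primordia, by 0.25 at elevated (adjusted p = 0.0142, but 0.0694 without expanding elevated replicate 1) and 0.34 at ambient CO2 (0.00187). Between mature and expanding leaves at ambient CO2 B18 fell by 0.26 (0.0215, but up to 0.0762 without 1 array). One of the B12 genes, AT2G02510, fell by 0.28 ± 0.09 between expanding leaves and primordia at elevated CO2 (adjusted p = 0.0104), and by 0.27 ± 0.09 and 0.36 ± 0.09 between mature leaves and primordia at elevated and ambient CO2. B16.6 (AT2G33220) and B14.7 (AT2G42210) were called in 1 stage comparison each and were lower in mature leaves than in primordia at elevated CO2, by 0.30 ± 0.10 and 0.25 ± 0.08. Without mature elevated replicates 3 and 4 the elevated calls of AT2G02510 and AT2G42210 in that comparison were lost (adjusted p = 0.0907 each). A 15 kDa gene, AT3G62790, was higher than in primordia in expanding leaves at ambient CO2 (0.30 ± 0.10, adjusted p = 0.0145) and in mature leaves at elevated CO2 (0.21 ± 0.09, adjusted p = 0.0428). Both calls were lost after quantile normalization (0.0637 and 0.181) and 75th percentile centring (0.0616 and 0.183), the first also without expanding ambient replicate 3 (0.115) and the second without any 1 of 7 arrays (up to 0.114).

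Complex III had 9 genes measured: 2 of 3 for the processing peptidase, 2 of 4 for the redox-active subunits and 5 of 6 for small subunits. QCR9 (AT3G52730), a small subunit, had 3.80, 3.77, 3.86 and 3.77 in elevated and 3.77, 3.83, 3.87 and 3.88 in ambient primordia; 3.40, 3.62 and 3.54 in elevated and 3.45, 3.50 and 3.53 in ambient expanding leaves; and 3.49, 3.50, 3.26 and 3.19 in elevated and 3.39, 3.39, 3.27 and 3.22 in ambient mature leaves. All primordia were above all later arrays. Mature leaves were lower than primordia by 0.44 ± 0.08 at elevated (log2, adjusted p = 3.64e-05) and by 0.52 ± 0.08 at ambient CO2 (adjusted p = 4.87e-06), and expanding leaves by 0.28 ± 0.09 (adjusted p = 0.00628) and 0.35 ± 0.09 (adjusted p = 0.00135).

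MPPBETA (AT3G02090), the catalytic beta subunit of the processing peptidase, rose where QCR9 fell. Its levels were 3.19, 3.25, 3.25 and 3.26 in elevated and 3.20, 3.17, 3.28 and 3.20 in ambient primordia; 3.49, 3.44 and 3.51 in elevated and 3.56, 3.43 and 3.50 in ambient expanding leaves; and 3.37, 3.38, 3.53 and 3.51 in elevated and 3.44, 3.36, 3.29 and 3.33 in ambient mature leaves. Expanding leaves exceeded primordia on every array, by 0.24 ± 0.07 at elevated (adjusted p = 0.00494) and 0.28 ± 0.07 at ambient CO2 (adjusted p = 0.00156). After quantile normalization these were 0.13 (adjusted p = 0.198) and 0.10 (adjusted p = 0.340). Both calls held with 75th percentile centring (adjusted p = 0.0270 and 0.0179), so they depend on which scaling is used. At elevated CO2 mature leaves were 0.21 ± 0.07 higher than primordia (adjusted p = 0.00566), and without mature elevated replicates 3 and 4 the value was 0.14 (adjusted p = 0.105), and with 75th percentile centring 0.13 (adjusted p = 0.0700). The alpha subunit of the peptidase, AT1G51980, was instead lower in mature leaves at ambient CO2, by 0.21 ± 0.07 against primordia (adjusted p = 0.0103) and 0.20 ± 0.08 against expanding leaves (adjusted p = 0.0419). The second of these calls was lost after quantile normalization (0.158) and with the RNA quality covariate (0.0979). It was also lost without any 1 of 6 arrays, with a change of -0.14 and an adjusted p of 0.203 without expanding ambient replicate 3.

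Cytochrome c1 passes electrons from complex III to cytochrome c, and 2 genes for it were measured. AT5G40810 had 2.74, 2.78 and 2.75 in elevated expanding leaves against 2.56, 2.57, 2.69 and 2.71 in elevated primordia, and 2.68, 2.93 and 2.94 in ambient expanding leaves against 2.70, 2.61, 2.53 and 2.62 in ambient primordia. In mature leaves it had 2.61, 2.59, 2.41 and 2.57 at elevated and 2.76, 2.56, 2.52 and 2.49 at ambient CO2. At ambient CO2 it rose by 0.24 ± 0.09 in expanding leaves over primordia (adjusted p = 0.0217) and fell by 0.27 ± 0.09 in mature leaves against expanding leaves (adjusted p = 0.0166), and both calls were lost without expanding ambient replicate 2 (adjusted p = 0.0923 and 0.0788) or 3 (0.102 and 0.0855). The first was also lost without primordia ambient replicate 3 (0.0584) and after quantile normalization (0.10, adjusted p = 0.263). AT3G27240 was called at no stage step. Of the small subunits, the QCR6 gene AT1G15120 fell by 0.31 ± 0.11 between mature leaves and primordia at ambient CO2 (adjusted p = 0.0156, but 0.0695 without primordia ambient replicate 3 and 0.0560 without replicate 4), and QCR7, QCR10 and the other QCR6 gene were called nowhere.

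Of ATP synthase, 2 of 3 central stalk subunits and both listed g subunits of the membrane part were measured, but neither catalytic head nor peripheral stalk subunits were. No gene of complex V was called higher at any stage step. The g gene AT4G29480 had 2.99, 3.06, 3.11 and 3.05 in elevated and 2.84, 3.06, 3.24 and 3.13 in ambient primordia; 2.90, 2.84 and 2.82 in elevated and 2.78, 2.86 and 3.01 in ambient expanding leaves; and 2.70, 2.76, 2.63 and 2.72 in elevated and 2.69, 2.52, 2.52 and 2.56 in ambient mature leaves. Mature leaves lay below primordia on every array, by 0.35 ± 0.08 at elevated (log2, adjusted p = 0.000543) and 0.50 ± 0.08 at ambient CO2 (adjusted p = 1.14e-05). It fell less between expanding leaves and primordia at elevated CO2 (0.20 ± 0.09, adjusted p = 0.0473). That call was lost without any 1 of 14 arrays (up to 0.118, without expanding elevated replicate 3). Between mature and expanding leaves at ambient CO2 it fell by 0.31 ± 0.09 (adjusted p = 0.00694). Of the single arrays, only leaving out expanding ambient replicate 3 lost this call (adjusted p = 0.0541), as did the RNA quality covariate (0.0670).

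The epsilon subunit (AT1G51650) of the central stalk spread widely between replicates. It had 3.04, 3.46, 3.43 and 3.59 in elevated and 3.20, 3.27, 3.12 and 3.49 in ambient primordia; 2.70, 3.27 and 3.03 in elevated and 2.41, 3.16 and 3.07 in ambient expanding leaves; and 3.11, 2.80, 2.61 and 2.53 in elevated and 2.78, 2.48, 2.75 and 2.72 in ambient mature leaves. Mature elevated replicate 1 reached into the range of primordia, while at ambient CO2 mature leaves and primordia were apart. Its fall between expanding leaves and primordia was not called in the main fit. After quantile normalization it was called at elevated (-0.48, adjusted p = 0.0134) and ambient CO2 (-0.51, adjusted p = 0.00941). The same held with 75th percentile centring (-0.43, adjusted p = 0.0325, and -0.47, adjusted p = 0.0227). The change between mature leaves and primordia was -0.61 ± 0.16 at elevated (adjusted p = 0.00185) and -0.59 ± 0.16 at ambient CO2 (adjusted p = 0.00281), and without mature elevated replicates 3 and 4 it was -0.42 at elevated CO2 (adjusted p = 0.0582). The delta-prime subunit (AT5G47030) fell by 0.31 ± 0.07 at elevated (adjusted p = 0.000672) and by 0.19 ± 0.07 at ambient CO2 (adjusted p = 0.0259) over the same comparison, the ambient call being lost in 4 fits with 1 array left out. The other g gene, AT2G19680, passed in no comparison. Its largest stage change, 0.23 in expanding leaves over primordia at ambient CO2, was called in 5 alternative fits, with adjusted p between 0.0186 (without expanding ambient replicate 2) and 0.0464 (without the dimmest probe sets).

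Counted over all 36 genes, more members were called lower than higher in each of the 6 stage comparisons, and in either direction together a smaller share was called than among all probe sets. Between expanding leaves and primordia 2 genes rose and 9 fell at elevated CO2, where 36.0% of the probe sets passed as higher and 33.9% as lower (69.9% in either direction). At ambient CO2 5 rose and 6 fell, against 35.1% and 31.2% (66.3% in either direction). These splits moved with the scaling: quantile normalization gave 1 higher and 15 lower at elevated and 0 higher and 14 lower at ambient CO2, and centring on the 75th percentile gave 2 and 14, and 2 and 12. Under all 3 scalings together 1 gene (PSST) was higher and 9 were lower at elevated CO2, and 0 were higher and 6 lower at ambient CO2.

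Between mature and expanding leaves, 0 genes rose and 1 (COX5b-1) fell at elevated CO2, where 16.9% of the background passed as higher and 20.9% as lower (37.8% in either direction). At ambient CO2 0 rose and 11 fell, where the background was 19.7% and 24.6% (44.3% in either direction). The count of 11 depended on single arrays, being 5 without expanding ambient replicate 3, 7 without expanding ambient replicate 1 and 14 without mature ambient replicate 1. It was also 5 with the 3-prime to 5-prime difference as a covariate, a measure that was highest in expanding leaves. At elevated CO2 quantile normalization gave 1 higher and 1 lower gene, and the 75th percentile 0 and 4.

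Between mature leaves and primordia, 4 genes rose and 18 fell at elevated CO2, where 39.2% of the background passed as higher and 39.6% as lower (78.8% in either direction). At ambient CO2 1 rose and 17 fell, where the background was 39.8% and 38.2% (78.0% in either direction). Quantile normalization gave 2 higher and 20 lower genes at elevated CO2 and 1 and 22 at ambient CO2, and the 75th percentile 1 and 20, and 1 and 22. Without mature elevated replicates 3 and 4 the elevated count was 2 higher and 12 lower. Called at both CO2 levels in this comparison were 14 genes in the lower direction and 1, PSST, in the higher direction, and 0 genes were called in opposite directions. Both CO2 levels gave 5 lower and 2 higher genes between expanding leaves and primordia, and 1 lower gene between mature and expanding leaves. The comparisons within a CO2 level share arrays and are not independent of each other.

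Complex I had 1 gene higher and 6 lower of 18 between expanding leaves and primordia at elevated CO2 and 3 higher and 4 lower at ambient CO2, and complex III had 1 higher and 1 lower of 9 at elevated and 2 higher and 1 lower at ambient CO2. Between mature and expanding leaves at ambient CO2, the 11 genes that fell were 6 of complex I, 2 of complex III, 2 of complex IV and 1 of complex V. The genes called between mature leaves and primordia were 2 higher and 11 lower of 18 in complex I at elevated CO2, with a median log2 change of -0.25 over all its measured genes, and 1 higher and 8 lower at ambient CO2 (median -0.14). Complex III had 1 higher and 1 lower of 9 (median -0.09) at elevated and 0 higher and 3 lower (-0.11) at ambient CO2. Complex IV had 1 higher and 3 lower of 5 at elevated and 0 higher and 3 lower at ambient CO2, and complex V 0 higher and 3 lower of 4 at both, with medians of -0.33 and -0.34. Over all 36 genes the median was -0.22 at elevated and -0.16 at ambient CO2, against -0.01 and 0.03 over all probe sets. No test between complexes was made.

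The changes were smaller over the 36 genes than over all probe sets, most of which were dimmer than any of these genes. The median size of the log2 change between mature leaves and primordia was 0.24 at elevated and 0.19 at ambient CO2 over the 36 genes, against 0.69 and 0.66 over all probe sets. Between expanding leaves and primordia the median sizes were 0.12 and 0.16, against 0.54 and 0.48, and between mature and expanding leaves 0.15 and 0.19, against 0.25 and 0.29. A change of at least 2-fold between mature leaves and primordia was reached by 1 of the 36 genes (2.78%) at each CO2 level, against 34.6% of all probe sets at elevated and 33.0% at ambient CO2. At elevated CO2 86.1% of the genes stayed within a log2 change of 0.5 in that comparison, against 38.1% of all probe sets, and at ambient CO2 80.6% against 39.9%.

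**Figure D3:**
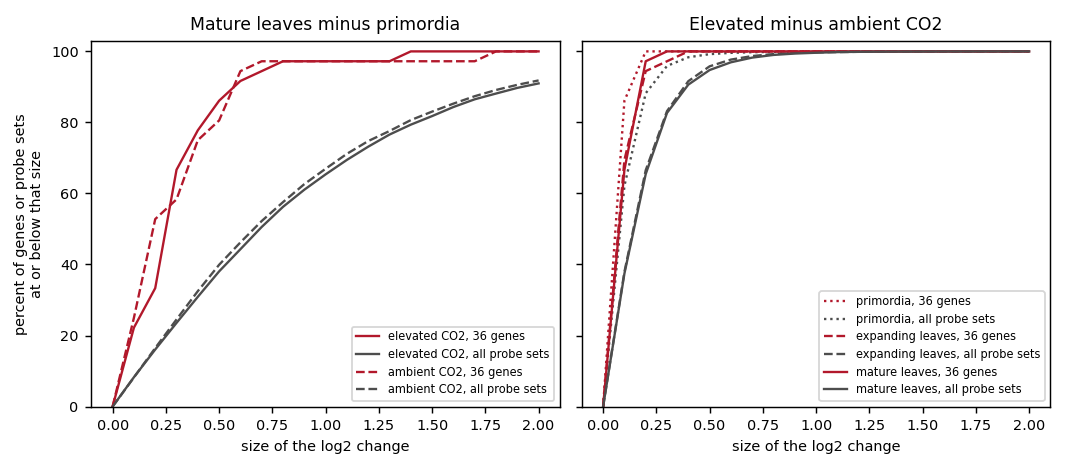
Cumulative percentage of genes or probe sets at or below a given size of log2 change, for the 36 genes and for all 12511 probe sets, between mature leaves and primordia and between elevated and ambient CO2. The curves of the 36 genes rise faster than those of all probe sets: between mature leaves and primordia at elevated CO2, 66.7% against 23.6% are within 0.3.

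The stage with the highest group mean was primordia for 22 genes, expanding leaves for 8 and mature leaves for 6 at elevated CO2, against 43.9%, 21.3% and 34.9% of all probe sets. At ambient CO2 the numbers were 18, 14 and 4, against 41.7%, 20.5% and 37.8%. A fall in mature leaves against primordia by sign alone was seen in 26 of 36 genes at elevated and 28 of 36 at ambient CO2. In at least 1 of the 6 stage comparisons 28 of the 36 genes were called, and 8 were called in none.

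Genes for the same subunit did not all move together. Both genes were measured for 10 pairs that encode the same subunit, of which 3 come from the COX5c trio, and for each the within-array difference was compared between stages by a two-sided exact permutation of the stage labels within each CO2 level, with Benjamini-Hochberg adjustment over 30 tests. The pairs were chosen for testing after their values had been seen, and the smallest unadjusted p the permutations can give is 0.000816 for steps with expanding leaves and 0.000408 for the other step. The difference changed between expanding leaves and primordia in 5 of 10 pairs, between mature and expanding leaves in 4, and between mature leaves and primordia in 8. For the COX5b pair, COX5b-1 lost 1.00 against COX5b-2 between mature leaves and primordia at elevated and 0.73 at ambient CO2 (combined log2 change -0.86, adjusted exact p = 0.00188), and -0.67 of this fell between mature and expanding leaves. COX5c-3 moved by -1.52 against COX5c-1 and by -1.27 against COX5c-2 between mature leaves and primordia (adjusted exact p = 0.00188 each).

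PGIV-2 had dropped against PGIV-1 (AT3G06310) already in expanding leaves, with a combined change of -0.62 against primordia, and stood at -0.66 in mature leaves (adjusted exact p = 0.00188 each). PGIV-1 itself had 1.00, 0.98 and 1.13 in elevated expanding leaves against 0.89, 1.01, 0.96 and 0.85 in elevated primordia, and 1.05, 1.06 and 0.98 in ambient expanding leaves against 0.80, 0.88, 0.87 and 0.89 in ambient primordia, where the change was 0.17 ± 0.07 (limma, adjusted p = 0.0480). That call was lost after quantile normalization (0.212), with 75th percentile centring (0.302) and without any 1 of 17 arrays (up to 0.125, without expanding ambient replicate 2). The 15 kDa genes diverged in the same step by -0.62 (AT2G47690 against AT3G62790, adjusted exact p = 0.00350). Their difference ran from -0.80 to -0.05 in ambient primordia, where AT2G47690 had 1.02 in replicate 3 against 0.17 to 0.36. At ambient CO2 AT2G47690 itself fell against primordia by 0.43 in expanding leaves (limma adjusted p = 0.0394) and 0.39 in mature leaves (0.0375). Each call was lost without any 1 of 3 arrays (up to 0.209 and 0.205). The g genes differed by -0.46 between mature leaves and primordia (AT4G29480 against AT2G19680) and the B12 genes by -0.34 (AT2G02510 against AT1G14450, adjusted exact p = 0.00408). The cytochrome c1 pair (adjusted exact p = 0.531) and the QCR6 pair (0.0585) did not pass in that comparison. Signal that near-identical genes may give on each other's probe sets was not tested.

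**Figure D4:**
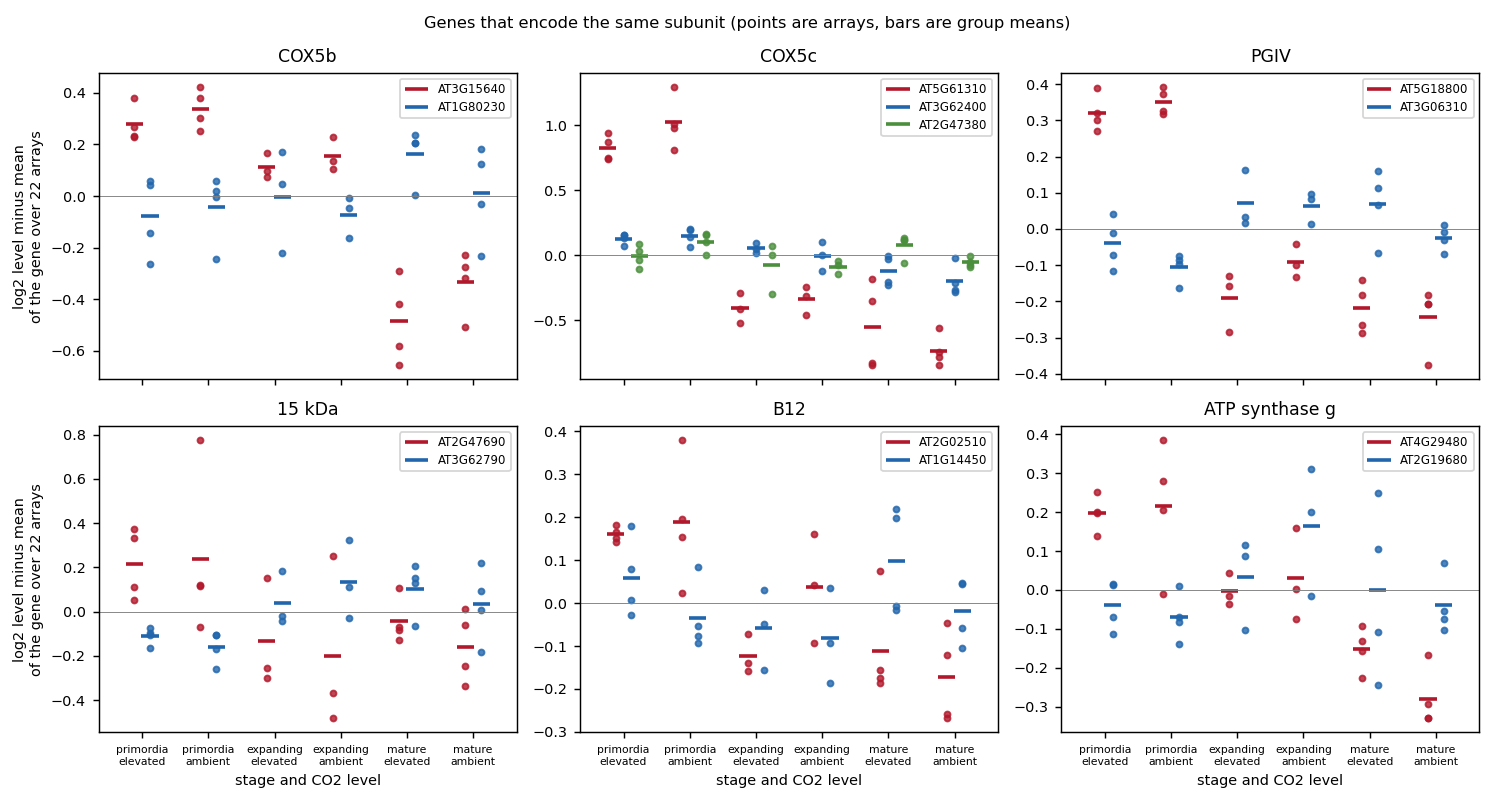
Log2 level of each gene minus its mean over the 22 arrays for 6 sets of genes that encode the same subunit, by stage and CO2 level; points are arrays and bars are group means. COX5b-1 drops in mature leaves while COX5b-2 does not, COX5c-3 drops in expanding leaves while COX5c-1 stays near its mean, and PGIV-2 drops in expanding leaves while PGIV-1 does not.

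No member was called between elevated and ambient CO2 at any stage. The background was itself small: 0.00799% of probe sets were called in primordia, 0% in expanding leaves and 3.90% in mature leaves. At an unadjusted p under 0.05 there were 0, 2 and 1 of the 36 genes, against 472, 1837 and 2754 of the 12511 probe sets. The median size of the log2 difference was 0.03, 0.07 and 0.08 over the 36 genes, against 0.08, 0.14 and 0.14 over all probe sets. A missed threshold does not show equal levels, so the intervals matter here. The 95% interval of the difference lay within 1.5-fold either way for 36 of 36 genes at each stage, and within 1.25-fold for 31 genes in primordia, 24 in expanding leaves and 28 in mature leaves.

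In expanding leaves the smallest p belonged to the 24 kDa gene (AT4G02580), whose elevated arrays at 3.18, 3.01 and 2.87 all lay below its ambient arrays at 3.41, 3.31 and 3.25 (log2 difference -0.30 ± 0.11, limma adjusted p = 0.225). The 39 kDa gene (AT2G20360) came next, with 2.00, 1.94 and 2.13 at elevated against 2.30, 2.23 and 2.32 at ambient CO2 (-0.26 ± 0.10, limma adjusted p = 0.239). The groups of neither gene overlapped, yet neither difference passed. The 13 kDa gene (AT3G03070) had 2.80, 2.82 and 2.93 at elevated against 2.97, 2.89 and 3.15 at ambient CO2 (limma adjusted p = 0.434). The B12 gene AT2G02510 had 2.26, 2.35 and 2.28 against 2.46, 2.33 and 2.58 (limma adjusted p = 0.467). These 4 genes of complex I, picked by smallest p, were all lower at elevated CO2 by their means. The median over the complex was -0.08, against -0.03 over all probe sets, of which 55.9% were lower. By sign, 13 of the 18 measured genes of the complex were lower. This number was 10 after quantile normalization and 12 with 75th percentile centring.

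In mature leaves the cytochrome c1 gene AT3G27240 had 2.11, 1.96, 2.23 and 1.98 at elevated against 1.99, 1.55, 1.89 and 1.80 at ambient CO2 (log2 difference 0.26 ± 0.10, limma adjusted p = 0.136), and the groups overlapped. The peptidase alpha subunit AT1G51980 had 2.76, 2.87, 2.84 and 2.90 at elevated against 2.75, 2.66, 2.64 and 2.75 at ambient CO2 (0.14 ± 0.07, limma adjusted p = 0.242), with no overlap. COX5b-1 (AT3G15640) differed by -0.15 ± 0.08 (limma adjusted p = 0.294). COX5c-1 (AT2G47380) had 3.52, 3.52, 3.34 and 3.53 at elevated against 3.40, 3.34, 3.33 and 3.31 at ambient CO2 (0.13 ± 0.08, limma adjusted p = 0.357). In primordia the 4 genes with the smallest p were COX5c-3 (-0.20 ± 0.13), COX5c-1 (-0.11 ± 0.08), the 24 kDa gene (-0.12 ± 0.10) and the B12 gene AT1G14450 (0.09 ± 0.08). COX5c-1 had 3.43, 3.48, 3.36 and 3.30 in elevated against 3.56, 3.50, 3.55 and 3.40 in ambient primordia, and AT1G14450 had 2.14, 2.17, 2.25 and 2.35 against 2.11, 2.09, 2.08 and 2.25. Elevated and ambient arrays overlapped for all 4 genes.

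**Figure D5:**
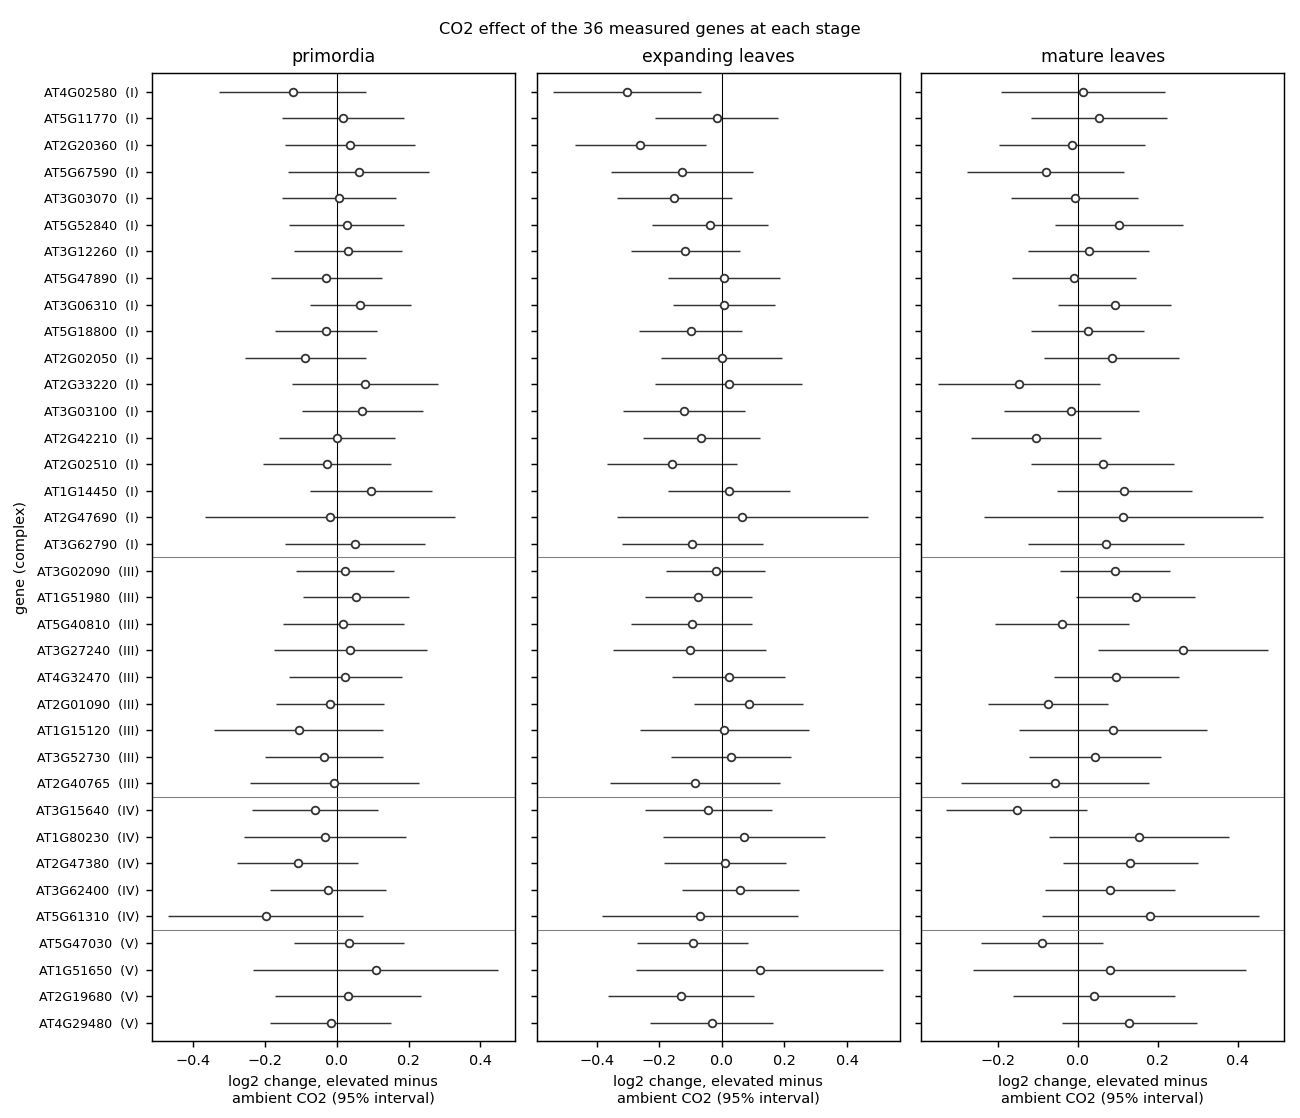
Log2 difference between elevated and ambient CO2 for each measured gene, with its 95% interval, in primordia, expanding and mature leaves. No gene passed the threshold, and the intervals span -0.47 to 0.45 in primordia, -0.54 to 0.52 in expanding leaves and -0.35 to 0.48 in mature leaves.

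Counted by sign alone, elevated CO2 was higher in 19 of 36 genes in primordia, 13 in expanding leaves and 24 in mature leaves, against 52.0%, 44.1% and 45.8% of all probe sets. The medians over the 36 genes were 0.01, -0.04 and 0.06. The CO2 difference was more positive in mature than in expanding leaves in 30 of 36 genes, against 48.9% of all probe sets, with a median of 0.09, and in 27 genes after quantile normalization and 28 after centring on the 75th percentile. None of these 36 differences passed the threshold. The genes share the same arrays, so their signs are not independent of each other. The median deviation over the 36 genes was 0.03, 0.005 and 0.14 in ambient expanding replicates 1 to 3. In the elevated ones it was -0.03, 0.06 and 0.01. The dependence of the count on single arrays was not tested. The F test of whether the CO2 difference varied between stages called 0 of the 36 genes, against 0.0320% of all probe sets, and at an unadjusted p under 0.05 it held 0 genes against 13.8% of all probe sets. The smallest adjusted p in that test was 0.409, for AT3G27240.

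Several genes that work beside these 4 complexes were also measured. Cytochrome c carries electrons between complexes III and IV, and its 2 genes went opposite ways. CYTC-1 (AT1G22840) averaged 4.28 ± 0.04 in elevated and 4.32 ± 0.02 in ambient primordia, 3.94 ± 0.004 and 4.01 ± 0.04 in expanding leaves, and 3.81 ± 0.03 and 3.65 ± 0.05 in mature leaves (SD, n = 4, 4, 3, 3, 4 and 4 arrays). CYTC-2 (AT4G10040) averaged 0.12 ± 0.12 and 0.08 ± 0.11 in primordia, 0.69 ± 0.20 and 0.53 ± 0.20 in expanding leaves, and 1.26 ± 0.22 and 1.00 ± 0.04 in mature leaves, in the same order of groups. Between mature leaves and primordia CYTC-1 fell by 0.47 ± 0.06 at elevated (limma adjusted p = 2.58e-07) and by 0.68 ± 0.06 at ambient CO2 (1.12e-09), whereas CYTC-2 rose by 1.14 ± 0.11 (6.13e-09) and 0.92 ± 0.11 (1.69e-07).

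Complex II, succinate dehydrogenase, had 3 of 12 listed genes measured, of which 2 fell and 0 rose between mature leaves and primordia at each CO2 level. The flavoprotein gene SDH1-1 changed by -0.35 ± 0.09 at elevated and -0.66 ± 0.09 at ambient CO2, and the iron-sulfur gene SDH2-2 by -0.39 ± 0.11 and -0.55 ± 0.11. SDH1-1 was also called between CO2 levels in mature leaves, with 1.72 ± 0.14 at elevated against 1.38 ± 0.09 at ambient CO2 (SD, n = 4 each; log2 difference 0.33 ± 0.09, limma adjusted p = 0.0403). That call was lost without any 1 of 6 arrays, reaching an adjusted p of 0.153 without mature elevated replicate 3. The alternative NAD(P)H dehydrogenases oxidise NADH or NADPH without pumping protons, and 3 of 7 were measured. All 3 were called higher in expanding leaves than in primordia at both CO2 levels, the call of NDC1 at elevated CO2 being lost without any 1 of 4 arrays (adjusted p up to 0.126, without expanding elevated replicate 1). NDB2 averaged -0.63 in elevated and -1.53 in ambient expanding leaves, against -3.38 in elevated and -3.14 in ambient primordia, so far below the array median that, with detection calls unknown, no size is given for its change. NDB1 fell by 0.82 ± 0.10 and 0.66 ± 0.10 between mature and expanding leaves. Of 7 further subunit genes outside the list of 60, 5 were measured, and between mature leaves and primordia 1 rose and 2 fell at each CO2 level. AT5G57815, of the COX6b family, rose by 0.87 ± 0.12 at elevated and 0.65 ± 0.12 at ambient CO2, and AT2G27730 fell by 0.61 ± 0.07 and 0.87 ± 0.07. AT2G27730 was also called between CO2 levels in mature leaves, with 2.38 ± 0.15 at elevated against 2.08 ± 0.07 at ambient CO2 (SD, n = 4 each; log2 difference 0.29 ± 0.07, limma adjusted p = 0.0342), a call lost without any 1 of 6 arrays and reaching an adjusted p of 0.124 without mature elevated replicate 3. None of the 5 listed alternative oxidases, 8 carriers and 18 porin, import, chaperone and prohibitin genes was measured.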

How the data were processed

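RNA of leaf 10 was measured on 22 Affymetrix arrays, labelled with a 3-prime in vitro transcription kit per the labels' protocols. The deposited table holds log2 values per probe set that the authors centred on each array's median; base 2 was inferred from the range (-6.80 to 6.54), and the sources used here do not give the background correction or probe summarisation. Detection calls, scan batches and depth are not known here. Of the 12570 probe sets in the deposited table, 59 controls were left out and 12511 tested with no further filter on low values. Of those tested, 6782 had 1 gene, 262 several and 5467 no name. The term all probe sets means these 12511. Whether other probe sets of the array were left out before deposit was not examined. Symbols were updated through the gene identifier to the RefSeq table of TAIR10.1.

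A cell-means model of 6 groups was fitted with limma 3.58.1 in R 4.3.3 (16 residual degrees of freedom, empirical Bayes, two-sided tests, Benjamini-Hochberg adjustment over 12511 probe sets, threshold 0.05). Fits were tested on simulated data with known changes: 66%, 52% and 65% of probe sets changed by 1.5-fold and 2.5%, 0% and 1% of those changed by 1.25-fold were recovered for CO2 in primordia, expanding and mature leaves (200 changed of 12511). Paralog differences were tested with exact permutation in Python 3.11.15.

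The members and the other gene lists were chosen with earlier results of these data known. Every measured member may be named; full values were given for up to 3 called members with the smallest p and the largest rise and fall per complex and stage step, and for the 4 members with the smallest p per CO2 comparison where none was called; other lists give up to 2 genes per step. The arrays are labelled as biological replicates. Same-numbered replicates of the 2 CO2 levels did not deviate together (r from -0.25 to 0.26), so the numbers were not treated as pairs. Alternatives were quantile normalization, 75th percentile centring, leaving out the dimmest 25% of probe sets, fits of only 2 groups, array weights, a replicate block and leaving out each array; leaving out 2 arrays together and an RNA quality covariate were added after the data had been seen.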

Additional observations from a re-analysis of the deposited data

Results flagged for a closer look

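In groups of 4 arrays, a value far from the other 3 (a gap to the nearest value that is most of the whole range, past the 95% critical value of Dixon) was found in 8 of 164 groups examined, and chance flags about 1 in 20, or 8.2. For PGIV-2 (AT5G18800) mature ambient replicate 4 was 1.53 against 1.71 to 1.73, a ratio of 0.875. For AT2G02510 (B12) mature elevated replicate 1 was 2.49 against 2.23 to 2.26 (ratio 0.880). For COX5b-2 (AT1G80230) mature elevated replicate 4 was 1.47 against 1.67 to 1.70 (ratio 0.875), and for COX5c-1 (AT2G47380) mature elevated replicate 3 was 3.34 against 3.52 to 3.53 (ratio 0.931). The median deviation over complex I in mature ambient replicate 4 was -0.18 against -0.08 to -0.07 (ratio 0.899). In primordia, FRO1 (AT5G67590) had 3.24 in ambient replicate 2 against 3.14 to 3.15 (ratio 0.885), B16.6 (AT2G33220) had 1.98 in elevated replicate 2 against 1.85 to 1.87 (ratio 0.834), and MPPBETA (AT3G02090) had 3.19 in elevated replicate 1 against 3.25 to 3.26 (ratio 0.844).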

How the results depend on the processing

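The counts of called members kept within 1.5 times of the reported ones under every alternative except those given here, and CO2 comparisons and the F test stayed at 0 throughout. Between mature and expanding leaves at elevated CO2, where 1 was called, quantile normalization gave 2, the 75th percentile 4 and leaving out the dimmest probe sets 3. At ambient CO2, where 11 were called, fitting only 2 groups gave 7 and the RNA quality covariate 5. Without mature elevated replicates 3 and 4, 14 rather than 22 were called between mature leaves and primordia at elevated CO2. Leaving out 1 array gave 8 to 12 members between expanding leaves and primordia at either CO2 level, 1 to 3 (elevated) and 5 to 14 (ambient) between mature and expanding leaves, and 19 to 22 (elevated) and 16 to 19 (ambient) between mature leaves and primordia; the CO2 and F counts ranged 0 to 0. The replicate block gave 10, 1 and 21 members for the 3 elevated steps and 11, 12 and 18 for the ambient ones in the order of expanding leaves against primordia, mature against expanding leaves, and mature leaves against primordia, and 0 for CO2.

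Of the 74 calls of members in the 6 stage comparisons, 25 were lost without some 1 array, 11 under another scaling and 9 without mature elevated replicates 3 and 4, and 0 turned sign without 1 array. All alternatives were run on the values that the naming rule picked; among these, the sign turned in 2 genes, at values near 0, and the cause was not tested. AT1G80230 between mature leaves and primordia at ambient CO2 was -0.038 after quantile normalization, -0.030 with the 75th percentile and -0.014 to 0.13 with 1 array left out. Between expanding leaves and primordia it was -0.092 at elevated CO2 with the covariate, and with 1 array left out -0.013 to 0.18 at elevated and -0.098 to 0.016 at ambient CO2. AT2G19680 between mature leaves and primordia was -0.066 at elevated and -0.080 at ambient CO2 after quantile normalization, -0.040 and -0.053 with the 75th percentile, and -0.044 to 0.12 and -0.0062 to 0.057 with 1 array left out. Between expanding leaves and primordia at elevated CO2 it was -0.027 after quantile normalization. Between mature and expanding leaves at elevated CO2 it was 0.14 without mature elevated replicates 3 and 4, 0.042 with the covariate and -0.12 to 0.049 with 1 array left out. Using probe sets without a suffix left the members' values as they were, and the mean of several probe sets was not run, since no member had several. Changes of 1.25-fold between CO2 levels were mostly missed on simulated data of this design, and the stage comparisons were not simulated.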
